A study of Mus musculus with 8 samples.

Results

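Xaf1, Irgm2 and Ifi204 are interferon-inducible genes whose signals in the brainstem differed between DBA/1 and C57BL/6 mice and also varied widely among mice of the same strain. They were followed through 4 probes of an Arraystar mouse lncRNA and mRNA array: a coding and a noncoding transcript of Xaf1, the coding transcript of Irgm2 and that of Ifi204. These are 4 of 60804 probes in the array's table of normalized values, and all 4 were among the 32883 probes bright enough to be compared. The genes were chosen by their values on these same 8 arrays, namely their strain difference and their spread among mice. Both are therefore described without a test.

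The C57BL/6 group held 4 male mice of the substrain C57BL/6JNifdc, and the DBA/1 group 4 male mice of the substrain DBA/1JNCrlj, a strain prone to seizures evoked by loud sound. All were 5 weeks old and untreated, came from 1 vendor, were kept pathogen-free and had not been tested for seizures. The whole brainstem was taken under isoflurane anesthesia, and RNA of each mouse was hybridized to 1 array as a biological replicate. Both groups were male only, and no mouse was given an interferon or an infection.

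Interferons are cytokines released on viral or bacterial challenge. They bind receptors on the cell surface and, through Janus kinases, send STAT transcription factors to the nucleus, where these bind a response element called ISRE or another called GAS beside the genes they switch on. Microglia, astrocytes and neurons all carry interferon receptors, and a low tonic level of the response is present in healthy brain. XAF1, the product of Xaf1, binds the apoptosis inhibitor XIAP and favors cell death. IRGM2 is an immunity-related GTPase that acts on intracellular membranes and vacuoles holding pathogens. Ifi204 encodes a HIN-200 protein, a family of DNA-binding proteins that sense DNA in the cell.

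The array reads each transcript through a probe of 60 bases. The opening 30 bases of each probe, as the array annotation gives them, are shown here because the 2 Xaf1 probes lie in different parts of the gene and gave opposite strain differences.
Xaf1, coding transcript: ctgtatttctggaccacagtcactcatttg
Xaf1, noncoding transcript: ctttcaggttatctcggctgtcttgtccaa
Irgm2: agcagggtgtgaattctctccgtgtcttag
Ifi204: gttcaatttgcaatttttatgcctaaaact

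In RefSeq's GRCm38.p6, Xaf1 lies on the plus strand at chr11:72301461-72313733. The coding probe (transcript NM_001037713) was annotated at chr11:72313674-72313733, which is the 3′ end of the gene. The noncoding probe (transcript ENSMUST00000142921, chr11:72301665-72308768) was annotated at chr11:72308515-72308606, 5127 bases before that end and inside the gene. Irgm2 lies on the plus strand of the same chromosome at chr11:58214977-58222783, and Ifi204 on the minus strand of chromosome 1 at chr1:173747293-173767069. The annotated spans of their probes ended 12 and 15 bases from the 3′ ends of these genes. Ifi204 and Irgm2 have close relatives in the mouse genome, and whether a probe also reads a relative was not tested.

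RefSeq promoter windows, from 250 bases before to 50 bases after a transcription start, were held for 2 of the 3 genes, Xaf1 and Irgm2. They were searched on both strands for the core of the interferon-stimulated response element (ISRE), GAAANNGAAA, and for the gamma-activated site (GAS), TTCNNNGAA. The 100 bases before the Irgm2 start are shown because both motifs, in capitals, lie side by side in them.
Irgm2, upstream bases at chr11:58214877-58214976, plus strand: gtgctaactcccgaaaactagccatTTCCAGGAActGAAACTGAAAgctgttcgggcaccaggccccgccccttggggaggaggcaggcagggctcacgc

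The GAS letters TTCCAGGAA were 75 to 67 bases before the start (chr11:58214902-58214910), and the ISRE letters GAAACTGAAA were 64 to 55 bases before it (chr11:58214913-58214922). The motifs did not overlap. Of 32851 windows of the same length, 3.44% held the ISRE core, 8.30% held the GAS letters and 0.454% held both. Neither set of letters was in the Xaf1 window. Its 250 upstream bases were chr11:72301379-72301628, so its transcription start lay inside the gene span given above. Bases before this window were not searched. A match describes the sequence and does not show binding.

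Signals are normalized log2 values, with intensities below 5 set to 5, so that 2.32 is the lowest possible value. C57BL/6 arrays held 33045 to 36162 probes well above background, against 29301 to 33350 for DBA/1. By their position codes, the C57BL/6 arrays lay in row 1 and the DBA/1 arrays in row 2, so that slide row and strain cannot be told apart. The codes read gave no slide number, and that the 8 arrays shared 1 slide is inferred from their 8 different positions. Tph2, the serotonin-synthesizing enzyme of raphe neurons, was well above background on all 8 arrays, as brainstem tissue should show. Its signal was 9.76 ± 0.65 in C57BL/6 and 11.39 ± 0.21 in DBA/1 (SD, n = 4 each).

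The coding transcript of Xaf1 had the largest strain difference of the 4 probes. In C57BL/6 mice its log2 signal was 3.31, 4.81, 3.43 and 3.98 in replicates 1 to 4. In DBA/1 mice it was 9.26, 9.52, 12.30 and 11.61. Every C57BL/6 mouse was near the lower end of the scale, although above background, and every DBA/1 mouse was high, with 4.45 log2 units between the highest C57BL/6 and the lowest DBA/1 mouse. The means were 3.88 ± 0.68 and 10.67 ± 1.51 (SD, n = 4 each), a difference of 6.79 (SE 0.83) or 110.4-fold. Before normalization the C57BL/6 intensities were 10.3 to 26.5, against 534 to 3798 in DBA/1. In bulk tissue, fewer cells of a type and less RNA per cell cannot be told apart.

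The noncoding Xaf1 transcript went the other way. Its log2 signal was 4.51, 4.5, 4.42 and 5.05 in C57BL/6 replicates 1 to 4, and 2.32, 2.32, 3.62 and 4.23 in DBA/1. Both of the lowest DBA/1 values were at the floor, and of the 4 DBA/1 mice 1, replicate 4, was well above background. The strains did not overlap, with a gap of 0.19 between the highest DBA/1 and the lowest C57BL/6 mouse. The means were 4.62 ± 0.29 and 3.12 ± 0.96 (SD, n = 4 each), and DBA/1 was lower by 2.82-fold (log2 difference -1.5, SE 0.50). Without the floor this log2 difference was -2.14. Thus 2 probes of the same gene gave opposite strain differences, each from a single spot per array. Whether each probe binds equally well to RNA of both strains was not tested.

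Irgm2 was lower in DBA/1. Its log2 signal was 7.77, 8.84, 7.79 and 8.54 in C57BL/6 replicates 1 to 4, and 3.99, 4.63, 5.86 and 7.03 in DBA/1. The strains did not overlap, and the highest DBA/1 mouse, replicate 4, came within 0.74 of the lowest C57BL/6 mouse. The means were 8.24 ± 0.54 and 5.38 ± 1.35 (SD, n = 4 each), 7.25-fold lower in DBA/1 (log2 difference -2.86, SE 0.73). All 8 values were well above background, and intensities were 229 to 607 in C57BL/6 and 16.8 to 139 in DBA/1.

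Ifi204 was lower in DBA/1 as well. Its log2 signal was 5.58, 7.0, 5.5 and 6.36 in C57BL/6 replicates 1 to 4, and 2.32, 3.55, 4.89 and 5.23 in DBA/1. DBA/1 replicate 1 was at the floor and not well above background, whereas the other 3 DBA/1 mice were. DBA/1 replicate 4 was 0.27 below the lowest C57BL/6 mouse, so the strains lay close but did not overlap. The means were 6.11 ± 0.71 and 4.00 ± 1.33 (SD, n = 4 each), 4.32-fold lower in DBA/1 (log2 difference -2.11, SE 0.75).

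**Figure D1:**
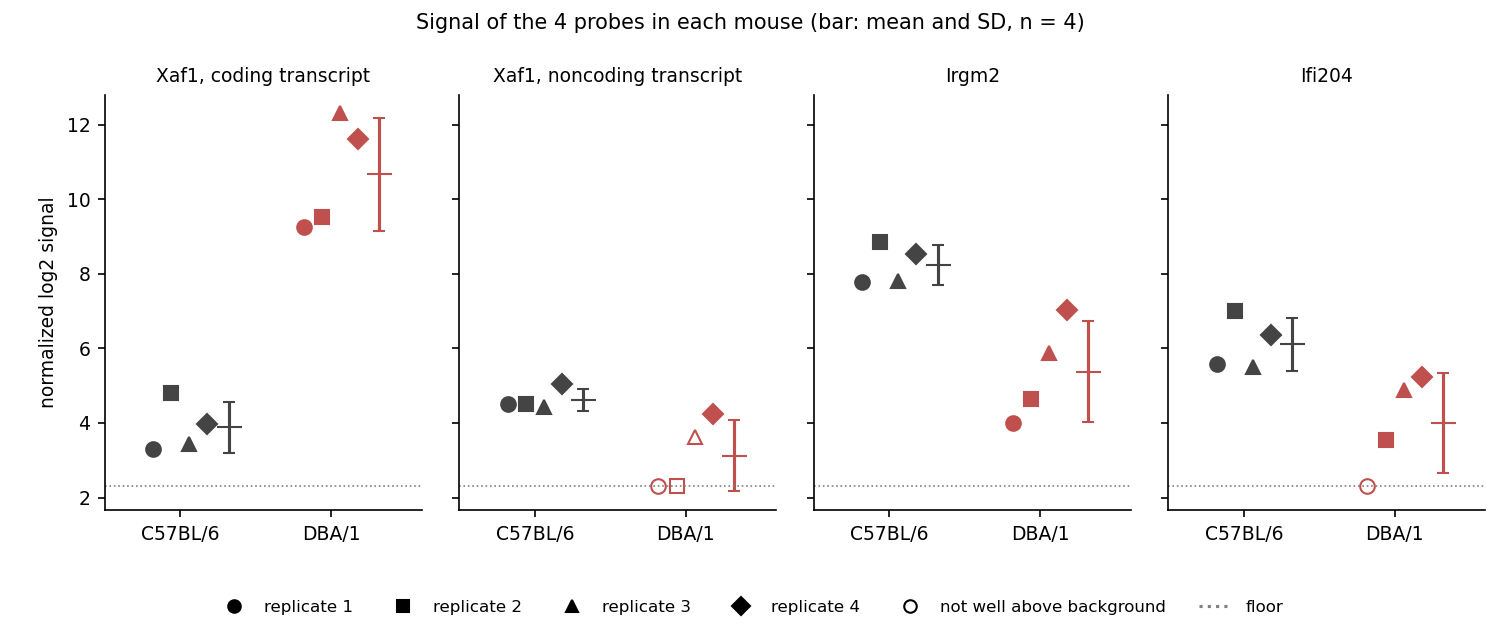
Normalized log2 signal (vertical axis) of the 4 probes in each mouse, with C57BL/6 in grey and DBA/1 in red, a marker shape per replicate, open markers for values not well above background, and a bar for mean and SD (n = 4). DBA/1 lies above C57BL/6 for the coding Xaf1 transcript (9.26 to 12.30 against 3.31 to 4.81) and below it for the other 3 probes, and the DBA/1 markers are more spread.

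In limma's fit across the 32883 tested probes, called were those that differed at least 2-fold and had an unadjusted p under 0.05. This held for 1.05% of them as higher and for 3.3% as lower in DBA/1. Of the 4 probes, 1 was on the higher and 3 on the lower side of that criterion, which follows from how they were picked. The lack of overlap between the strains is tied to the same choice, and its share over all tested probes was not counted. The differences were smaller under normexp, run on median spot signals with an offset of 50 in place of the scanner's processed signals and the floor. There the log2 differences were 4.64 for coding Xaf1, -0.40 for noncoding Xaf1, -1.77 for Irgm2 and -0.73 for Ifi204, all in the same direction as above.

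Mice of 1 strain differed by more than most transcripts of like brightness. In DBA/1, the highest mouse exceeded the lowest by 8.22-fold for coding Xaf1, 8.25-fold for Irgm2 and 7.5-fold for Ifi204, and by 3.76-fold for the noncoding Xaf1 transcript. In C57BL/6, the corresponding ranges were 2.82-fold, 2.10-fold, 2.83-fold and 1.55-fold. All 4 probes therefore ranged more widely among the DBA/1 mice than among the C57BL/6 mice.

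Each SD was set beside those of tested probes whose mean in the same strain lay within 0.5 log2 units. For coding Xaf1 in DBA/1, the SD of 1.51 compared with a median of 0.27 over 1089 such probes, and 99.8% of them had a smaller SD. For Irgm2 in DBA/1, the SD of 1.35 compared with a median of 0.29, and again 99.8% of its peers varied less. For Ifi204 in DBA/1, the SD of 1.33 compared with a median of 0.43 and exceeded that of 99.2% of peers, with 1 of its 4 values at the floor. The 3 coding transcripts were thus near the top of the spread for their brightness in DBA/1, as the probes had been picked to be.

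In C57BL/6 the spread was smaller but still wide for the coding transcripts. The SD exceeded that of 95% of peers for coding Xaf1, 97.8% for Irgm2 and 98.8% for Ifi204. For the noncoding Xaf1 transcript the SD of 0.29 exceeded that of 57.6% of peers, close to their median of 0.27. In DBA/1 it exceeded that of 94.2% of peers, with 2 of its 4 values there at the floor. Over all 31872 tested probes with 8 values, the median SD was 0.25 in C57BL/6 and 0.31 in DBA/1.

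**Figure D2:**
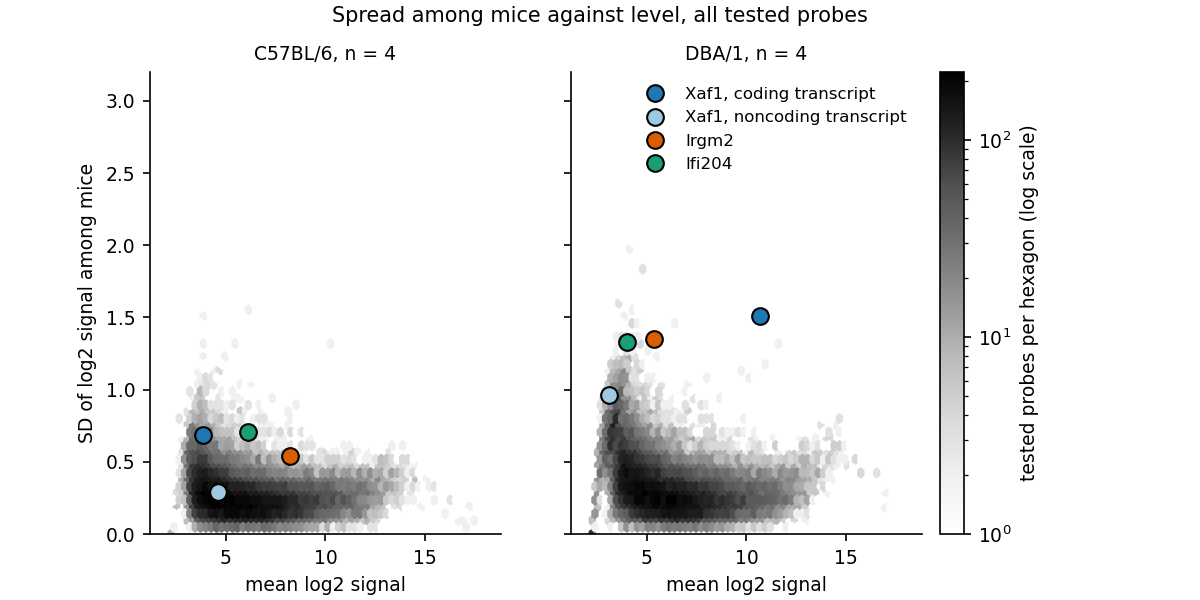
SD of the log2 signal among the 4 mice of a strain (vertical axis) against the mean log2 signal (horizontal axis), with the 31872 tested probes as grey hexagons shaded by their number on a log scale. The colored points of the 3 coding transcripts lie near the upper edge of the DBA/1 cloud, with coding Xaf1 at a mean of 10.67 and an SD of 1.51. The noncoding transcript exceeds 94.2% of its peers there, whereas in C57BL/6 it lies inside the cloud.

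The error that the scanner software gave each spot was small against this spread for bright spots. It was at most 10.02% of the intensity for the 4 DBA/1 values of coding Xaf1 and at most 10.05% for Irgm2 in C57BL/6. For dim spots it was larger, at 12.3% to 21.3% for coding Xaf1 in C57BL/6 and 20.5% for Irgm2 in DBA/1 replicate 1. For both floor values of noncoding Xaf1 it was about as large as the intensity itself, so those values have no order.

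The coding transcripts varied together across mice. Among C57BL/6 mice, replicate 2 was the highest and replicate 4 the next for all 3 coding transcripts, and replicates 1 and 3 were the lowest. Among DBA/1 mice, replicate 1 was the lowest, replicate 2 the next, and replicates 3 and 4 were the highest, for the coding transcripts of Xaf1, Irgm2 and Ifi204. The top places were exchanged for Xaf1, with replicate 3 above replicate 4 in normalized signal, although its intensity before normalization was lower, at 2639 against 3798. In DBA/1 the noncoding Xaf1 transcript kept the order of Irgm2 and Ifi204 as far as its 2 floor values allow. In C57BL/6 it did not: its replicates 1 to 3 were nearly level and replicate 4 stood above them.

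To put both strains on 1 scale, the mean of its own strain was subtracted from each value. In DBA/1 replicate 1 the coding transcripts then deviated by -1.41 for Xaf1, -1.39 for Irgm2 and -1.68 for Ifi204. In DBA/1 replicate 4 they deviated by 0.94, 1.65 and 1.23. In C57BL/6 replicate 2 they deviated by 0.93, 0.61 and 0.89. For each of the 8 mice, the 3 coding transcripts deviated from their strain means in the same direction.

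**Figure D3:**
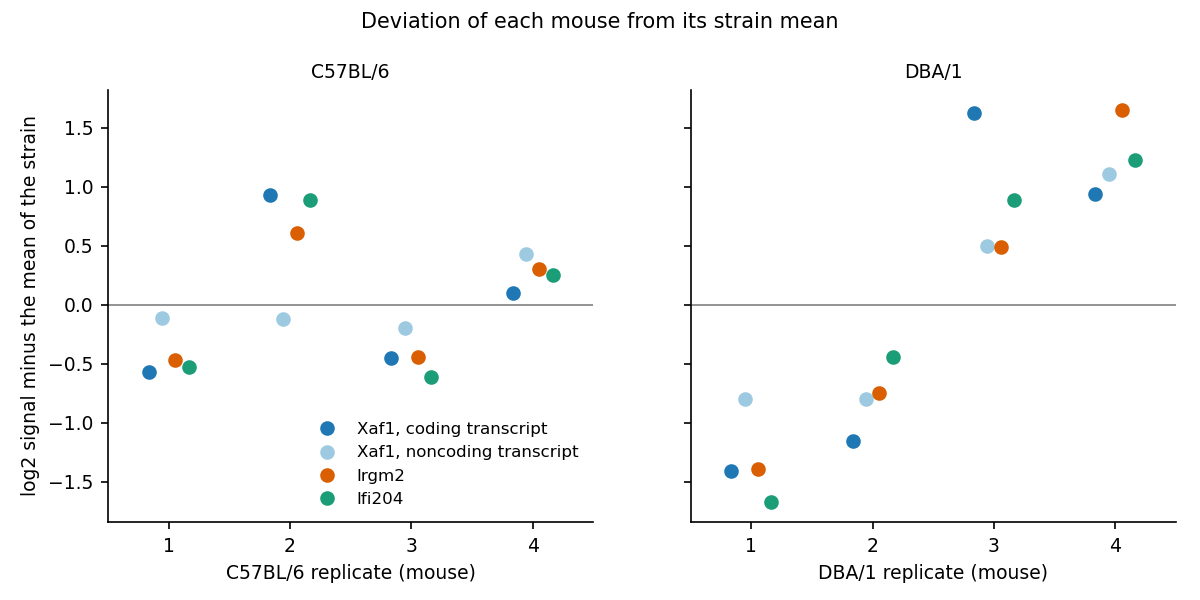
Log2 signal minus the mean of the strain (vertical axis) for each mouse (horizontal axis, replicates 1 to 4), C57BL/6 at the left and DBA/1 at the right, with a color per probe and points set side by side for legibility. The coding transcripts of Xaf1, Irgm2 and Ifi204 lie on the same side of 0 in each of the 8 mice, from -1.68 to 1.65, whereas the noncoding Xaf1 transcript departs from them in C57BL/6 replicate 2.

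Over the 8 strain-centered values, Pearson's r was 0.95 between Irgm2 and Ifi204. For Irgm2, 0.182% of all tested probes reached an r at least as high, and for Ifi204, 0.135% did. Between coding Xaf1 and Ifi204 r was 0.92, a value reached by 0.42% of tested probes with coding Xaf1 and by 0.461% with Ifi204. Between coding Xaf1 and Irgm2 it was 0.86, reached by 1.42% with coding Xaf1 and by 1.67% with Irgm2. The noncoding Xaf1 transcript had r of 0.91 with Irgm2, 0.81 with Ifi204 and 0.80 with coding Xaf1. Within C57BL/6 alone (n = 4) these values were 0.41, 0.29 and 0.13. Within DBA/1 alone (n = 4) they were 0.98, 0.92 and 0.90, with 2 of the 4 noncoding values at the floor. For these 3 pairs over the 8 mice, 0.436% to 3.33% of tested probes reached an r at least as high. For the 3 pairs of coding transcripts, r was 0.96 to 0.99 within C57BL/6 and 0.84 to 0.95 within DBA/1. The mean over the 6 pairs, those of the noncoding transcript included, was 0.876, and it lay between 0.824 and 0.918 when each mouse was left out in turn. These values describe 8 mice in which all 4 probes of a mouse came from the same array, and DBA/1 mice weigh more in them because they deviated more. Within a strain each mouse also had its own slide column, so mouse and slide column cannot be told apart.

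Coding Xaf1 was higher in DBA/1 than in C57BL/6, whereas within DBA/1 the mice with more of it were those with more Irgm2 and Ifi204, which were lower in DBA/1. The mean of the scaled deviations of the 3 coding transcripts, called the shared profile here, had r of 0.16 with the number of probes well above background and of -0.12 with the 75th percentile of intensity, with both centered by strain. For single probes, r with the number of probes well above background was -0.09 for coding Xaf1, 0.34 for noncoding Xaf1, 0.37 for Irgm2 and 0.21 for Ifi204. With the 75th percentile it was -0.33, 0.20, 0.09 and -0.12 in the same order. The part of array brightness in the shared pattern was not tested.

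Over all 31872 tested probes with 8 values, r with the shared profile had a median of 0.01 and was positive for 50.4%. It was above 0.9 for 243 probes (0.762%), the 3 coding probes included. Gene names were at hand only for probes that the study had called different between the strains, and 551 of these, other than the 4 probes, were well above background on all 8 arrays. The most alike of these genes are described here because of their rank.

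Highest among the 8 most alike was Trim34a, a tripartite motif protein of an antiviral family, with r of 0.957. Its signal was 8.56 ± 0.26 in C57BL/6 and 6.06, 6.31, 7.45 and 7.73 in DBA/1 replicates 1 to 4, the same order as Irgm2. Defa-rs7, a defensin-related gene, had r of 0.955, and Tlr12, a Toll-like receptor that recognizes profilin of parasites, had r of 0.942. Tlr12 was 3.67, 4.44, 5.46 and 5.25 in DBA/1 replicates 1 to 4, with the lowest mice again being 1 and 2.

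Neighboring probes on chromosome 7 were in the same group. Gvin1, a very large interferon-inducible GTPase, had r of 0.929 and a signal of 6.30, 6.17, 7.42 and 7.45 in DBA/1 replicates 1 to 4. Gm8979, a noncoding transcript, had r of 0.935 and a signal of 6.87, 6.92, 7.86 and 8.81 in the same mice. In C57BL/6, both were highest in replicate 2 and next in replicate 4, as Irgm2 was. H2-D1, a class I antigen-presenting molecule encoded on chromosome 17, had r of 0.932. The noncoding transcripts AK138490 (r of 0.936) and Gm15420 (r of 0.925), both on chromosome 17, completed the 8.

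Of these 8 genes, 5 were lower in DBA/1 (Trim34a, Tlr12, AK138490, Gm8979 and Gvin1) and 3 were higher (Defa-rs7, H2-D1 and Gm15420). Likeness across mice thus went with either direction of strain difference, as it did for Irgm2 and coding Xaf1. At the other end, the 4 least alike were a noncoding transcript of Agtr1a, the angiotensin receptor gene (r of -0.967), Map9, a microtubule-associated protein (r of -0.936), AK089576 (r of -0.933) and a noncoding transcript of the kinase gene Cdk14 (r of -0.918). In DBA/1, AK089576 was 6.50 and 6.49 in replicates 1 and 2, and 4.23 and 4.63 in replicates 3 and 4, the reverse of Irgm2.

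A wider list of 149 interferon-inducible genes was set beside the 3 genes. Names were at hand for 22 of its genes, and without Xaf1, Irgm2 and Ifi204 these came to 20 tested probes of 19 genes. All 20 met the criterion of fold change and unadjusted p, 10 higher and 10 lower in DBA/1, because only probes called by the study were named. The list is therefore not independent evidence of a direction. The median log2 difference of the 20 probes, 0.00, fell between the 10 rises and the 10 falls, each at least 2-fold. It therefore describes none of the probes. With the Benjamini-Hochberg adjusted p of limma under 0.05 as a further requirement, 15 of the 20 remained. Over all tested probes, 1266 of the 1430 called remained.

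By role, all 9 named probes of antigen presentation were higher in DBA/1, whereas of the 11 others 10 were lower. The remaining gene, Slfn3, a Schlafen gene linked to lymphocyte growth, was higher by 1.59 on the log2 scale. Slfn3 was well above background in 1 of 4 C57BL/6 and 3 of 4 DBA/1 mice. Over all 1430 called probes, 75.9% were lower and 24.1% higher in DBA/1, and whether the listed roles differ from that share was not tested. Class I genes resemble each other closely, so a probe for 1 of them may also read another. The largest rise was that of a noncoding transcript of H2-Bl, at 7.23 ± 0.08 in C57BL/6 and 11.30 ± 0.37 in DBA/1 (SD, n = 4 each; limma adjusted p = 1.69e-07). H2-Q1 (noncoding transcript) was higher by 2.07, H2-Q6 by 1.51, H2-T24 by 1.33, H2-Q3 (noncoding transcript) by 1.29 and H2-DMa, which loads peptides on class II molecules, by 1.1. H2-D1 was higher by 1.34 in its coding and by 1.71 in its noncoding transcript. H2-L was higher by 1.05. Neither H2-D1 transcript nor H2-L passed the adjustment, with limma adjusted p of 0.0817 for coding H2-D1, 0.0513 for noncoding H2-D1 and 0.157 for H2-L, and for H2-L and H2-Q6 1 DBA/1 value was left out as a spot outlier.

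Among genes lower in DBA/1, Gvin1, of the interferon-inducible GTPases like Irgm2, was 8.74 ± 0.60 in C57BL/6 and 6.84 ± 0.70 in DBA/1 (SD, n = 4 each; limma adjusted p = 0.00761). Aim2, a DNA sensor of the HIN-200 family like Ifi204, was 5.36 ± 0.26 and 3.35 ± 0.73 (limma adjusted p = 0.00179), with 2 of 4 DBA/1 mice well above background. The antiviral effector Trim34a fell by 1.67 on the log2 scale, and the noncoding transcript of Trim5, of the same family, by 1.2. Apobec3, a cytidine deaminase that restricts retroviruses, had a log2 difference of -1.30 with a limma adjusted p of 0.0532. The noncoding transcript of Ifih1, the gene of an RNA sensor, had one of -1.06 with a limma adjusted p of 0.0553.

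Beside Xaf1 itself, the cytokine and cell death role had 4 named probes among 20 genes, and all 4, preselected as called, were lower in DBA/1. Xdh, the xanthine dehydrogenase of purine breakdown, was 7.98 ± 0.46 in C57BL/6 and 5.17 ± 0.73 in DBA/1 (SD, n = 4 each; limma adjusted p = 0.000282). Apol11b, an apolipoprotein L gene, fell by 2.81 and Il15, a cytokine that sustains natural killer cells, by 1.29. The strains overlapped for Apol11b, with SDs of 1.18 in C57BL/6 and 1.43 in DBA/1 (limma adjusted p = 0.0316). Its signal was 5.66 in DBA/1 replicate 2 and 5.19 in C57BL/6 replicate 4. Tnfsf10, which encodes the death ligand TRAIL, was well above background in all 4 C57BL/6 mice and in none of the DBA/1 mice.

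Across mice, these genes followed the shared profile to different degrees. Of the 18 probes with 8 values, r with the profile was positive for 15 and above 0.9 for 3, namely Trim34a, H2-D1 and Gvin1, with a median of 0.63. It was 0.79 for Il15, 0.89 for H2-T24, 0.90 for H2-Q3 and 0.88 for H2-Q1. It was 0.07 for H2-Bl and 0.19 for Xdh, whose strain differences were among the largest. It was negative for Apol11b at -0.22, Apobec3 at -0.28 and Slfn3 at -0.67.

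**Figure D4:**
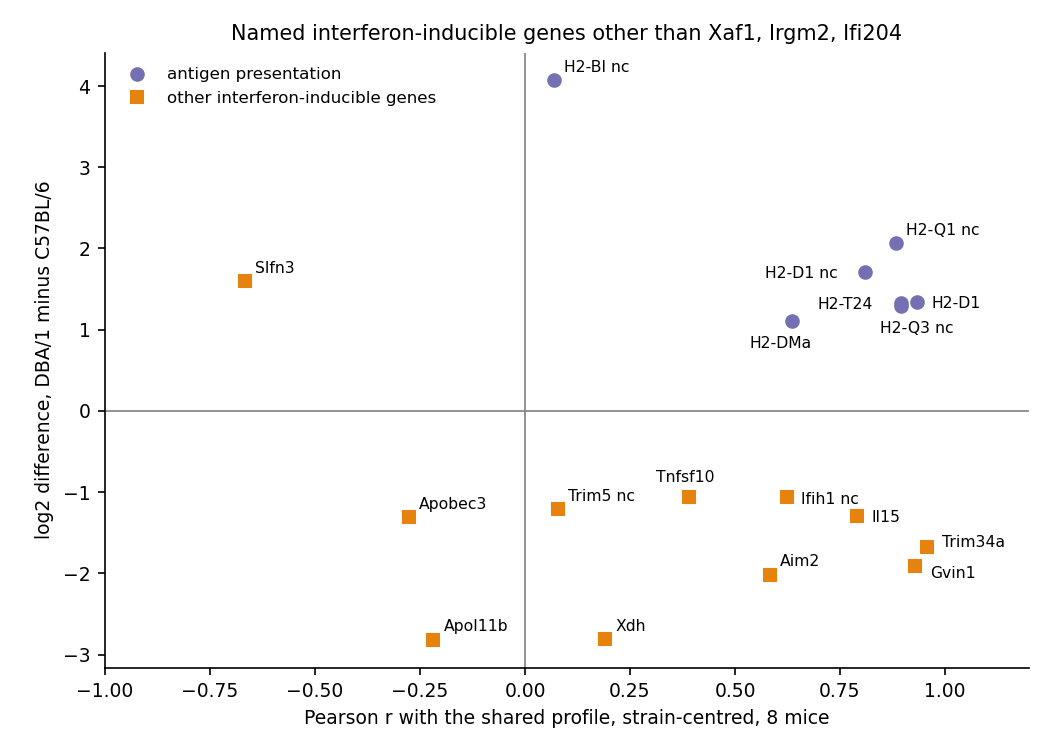
Log2 difference between the strains (vertical axis, DBA/1 minus C57BL/6) against Pearson's r with the shared profile over 8 strain-centered mice (horizontal axis) for the 18 named interferon-inducible probes with 8 values, with nc marking noncoding transcripts. Antigen presentation probes (circles) all lie above 0 and the others (squares) lie below 0 apart from Slfn3, while high r occurs on both sides, as for H2-D1 at 0.932 and Trim34a at 0.957. For Tnfsf10, no DBA/1 value was well above background.

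Markers of other cells were checked because interferon-inducible genes are active in immune cells. Of 59 markers in the lists, 8 were named, and none of these belonged to neurons in general, astrocytes, oligodendrocytes, vessels, choroid plexus or blood. Of 12 lymphocyte markers, 5 were named. Zap70, of T cell receptor signaling, and Lta, the cytokine lymphotoxin alpha, were higher in DBA/1. Gzmb, the granzyme of cytotoxic cells, Klra7, a natural killer cell receptor, and Itgae, an integrin of tissue T cells, were lower. The summed signal of these 5 was 95.4 to 138 in C57BL/6 and 115 to 131 in DBA/1, with r of 0.33 to the shared profile. Since the 5 differed in both directions between the strains and some were not well above background, this sum is no measure of lymphocyte content.

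Gzmb stood apart from the other lymphocyte markers. It was 3.91, 4.24, 4.72 and 5.53 in DBA/1 replicates 1 to 4, the order of Irgm2. In C57BL/6 replicates 1 to 4 it was 5.48, 6.03, 5.67 and 5.46. Replicate 4 was the lowest there, unlike for Irgm2. The strain difference of Gzmb, -1.06 on the log2 scale, did not pass the adjustment (limma adjusted p = 0.0791). Its r with the shared profile was 0.88. For Zap70 r was 0.18, for Lta -0.46, for Klra7 -0.53 and for Itgae 0.57. No C57BL/6 value of Zap70, and no DBA/1 value of Klra7 or Itgae, was well above background. Of 10 microglia and macrophage markers, the single 1 named was Fcrls, at 5.19 ± 0.20 in C57BL/6 (SD, n = 4) and at the floor in all 4 DBA/1 mice. Any variation of it among DBA/1 mice would therefore not be visible. Of 11 brainstem neuron markers, Tph2 and a noncoding transcript of Slc6a4, the serotonin transporter gene, were named, and r was 0.08 and 0.49. The part of any cell type in the spread of Xaf1, Irgm2 and Ifi204 was not tested.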

How the data were processed

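Brainstem RNA of 8 mice was freed of rRNA, amplified and labeled by random priming and hybridized, 1 mouse per array, to 1-color Agilent arrays. The authors deposited spot intensities from Agilent Feature Extraction 11.0.1.1, background-subtracted within each array but not normalized between arrays, and a table of quantile-normalized log2 values. The intensities were used here; the log2 table of the authors was an alternative. After control and outlier spots were removed, a floor of 5 was set on the intensity and the arrays were quantile-normalized. Testing required signal well above background on 4 or more of the 8 arrays and 2 or more values per strain. DBA/1 was compared with C57BL/6 by lmFit and eBayes (limma 3.58.1, R 4.3.3), with Benjamini-Hochberg adjustment over all tested probes, after the fit was tested on simulated data. Tables were made in Python 3.11.15 (numpy 2.4.6, pandas 2.3.3). Probe sequences, names and positions came from the array annotation that accompanied the study, which was read for 1194 probes, and gene positions and promoters from RefSeq. The number of arrays limits the precision.

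The members and lists were chosen with earlier results of these data known. Named were the 4 probes, the listed interferon-inducible genes with a tested probe, and the 8 genes most and 4 least like the shared profile among named probes well above background on all 8 arrays; the markers were a fixed list. The alternatives were 75th percentile scaling, no floor, the authors' table, outlier spots kept, normexp with an offset of 50 (on median spot signals), other filters on dim probes, an unmoderated test, a replicate block, the adjusted p, and each mouse left out. Same-numbered mice were not paired by the labels, and the columns of the authors' own comparisons were not used.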

Additional observations from a re-analysis of the deposited data

Results flagged for a closer look

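In groups of 4 mice, a value was marked when its gap to the nearest other value, as a share of the whole range, exceeded Dixon's critical value for 4 values, which chance alone gives in about 1 of 20 groups. Of 64 groups examined, 3 held such a value. The noncoding Xaf1 transcript was 5.05 in C57BL/6 replicate 4, above the 4.42 to 4.51 of the other 3 mice, with a gap ratio of 0.857. Apol11b was 5.19 in C57BL/6 replicate 4, below the 7.38 to 7.75 of the others, with a ratio of 0.853. Gm15420 was 3.40 in C57BL/6 replicate 3, below the 3.67 to 3.72 of the others, with a ratio of 0.863. The cell type markers were not among the groups examined. Among these markers, Tph2 was 10.73 in C57BL/6 replicate 2, above the 9.38 to 9.53 of the other C57BL/6 mice.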

How the results depend on the processing

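The direction of all 4 strain differences held under every alternative processing of the signals and with each mouse left out. The filter on all 8 arrays left noncoding Xaf1 and Ifi204 untested, since not all their DBA/1 values were well above background. Normexp moved the most values: 359 probes met the criterion in place of 1430, and 11 of the listed interferon-inducible probes in place of 20, with log2 differences of 4.64 for coding Xaf1, -0.40 for noncoding Xaf1, -1.77 for Irgm2 and -0.73 for Ifi204 and a mean r over the 6 pairs of 0.733. This alternative changed the input signal, the correction and the offset together, and the cause was not tested. With probes well above background on all 8 arrays, 670 probes and 13 listed probes met the criterion, with fewer probes tested. Leaving out each mouse in turn gave 1391 to 1655 probes, 17 to 20 listed probes, a mean r of 0.824 to 0.918, and log2 differences of 6.24 to 7.26 for coding Xaf1, -1.87 to -1.23 for noncoding Xaf1, -3.41 to -2.39 for Irgm2 and -2.52 to -1.55 for Ifi204. The other alternatives gave 1266 to 1498 probes and 15 to 20 listed probes. Same-numbered mice of the strains correlated by 0.376, 0.021, 0.135 and 0.350 in their deviations over 31872 probes. Of the 8 mice, 6 correlated best with their own number. The numbers also match the slide columns, and a part of the slide column in these deviations was not tested. The numbers were not taken as pairs because the labels do not pair the mice. The fit with a replicate block gave 1428 probes and 19 listed probes. A slide block was not fitted, since the arrays were taken to share 1 slide. Values at the floor bound the level of noncoding Xaf1 and Ifi204 in DBA/1 from above only.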
